A study of Mus musculus with 6 samples.

Results

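The variable (V) segments of the mouse immunoglobulin loci were described as a group of transcribed gene segments in 6 RNA-seq libraries. Members were the rows of the count table whose symbol begins with Ighv (heavy chain), Igkv (kappa light chain) or Iglv (lambda light chain) and whose counts sum to 20 or more over the 6 libraries. This gave 223 segments (107 Ighv, 114 Igkv and 2 Iglv) of 283 V rows and of 32377 gene rows in all. The members were thus chosen by their summed counts, which are therefore only a description. The 60 V rows left out held 361 counts together. Just outside the threshold stood Ighv1-14, Ighv11-1 and Ighv2-7 with 19 counts each, and just inside it Ighv1-25 with 21 counts and Igkv1-131 and Igkv14-126-1 with 22 each. GENCODE annotates 199 members as V genes and 24 as V pseudogenes (9 Ighv and 15 Igkv).

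The study compared regulatory T (Treg) cells of 2 kinds by poly(A) RNA-seq, with 3 mouse libraries under the label TNFR2-deficient Treg and 3 under the label TNFR2 positive Treg. TNFR2 is a tumour necrosis factor receptor encoded by Tnfrsf1b. The labels give no strain, age, tissue, sort or gate, and they do not say whether the deficiency was genetic or which cells express it. They name no animals either, so the p-values rest on a spread between libraries that may be technical.

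A B cell makes its antibody by joining 1 V segment to D and J segments in the heavy chain locus, and 1 V segment to a J segment in the kappa or lambda locus, upstream of a constant region. Each B cell thereby transcribes mainly the V segment it has joined, so the mix of V transcripts in a tissue reads out which segments its B cells carry. Mouse B cells use kappa far more often than lambda, and plasma cells hold much more immunoglobulin RNA per cell than resting B cells. T cells, Treg cells included, do not assemble immunoglobulin V segments into antibodies. In bulk RNA, fewer cells of a type and less RNA per cell cannot be told apart.

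Library totals ranged from 19296082 to 24038118 counts. Levels are given in CPM, counts scaled to the library total and edgeR's TMM factor. Tnfrsf1b stood at 8.30, 7.99 and 7.32 CPM in TNFR2-deficient libraries 1 to 3 and at 84.6, 84.2 and 80.2 CPM in the TNFR2-positive ones. The 5 Treg markers measured summed to 22.4 to 28.3 CPM in the TNFR2-deficient and 442.2 to 493.4 CPM in the TNFR2-positive libraries. Foxp3, the factor that defines Treg cells, was at 1.44 ± 0.0974 against 75.5 ± 2.14 CPM (SD, n = 3), so the TNFR2-deficient libraries hold little of the marker that their label names. All 16 B cell markers were detected, and they summed to 11326 to 11742 CPM in the TNFR2-deficient and 9848 to 9904 CPM in the TNFR2-positive libraries. Per kilobase of exon, these markers ranged from 21.2 CPM (Ebf1) to 1369 CPM (Cd79a) in the TNFR2-deficient group mean and from 22.6 to 808.3 CPM in the TNFR2-positive one. The 4 T cell markers ranged from 42.3 CPM (Cd3e) to 223.1 CPM (Trac) and from 22.4 to 150.9 CPM per kilobase. The ranges of the lists overlapped, but the highest B cell values lay well above the T cell range. The T cell markers summed to 950.5 to 976.2 CPM in the TNFR2-deficient and 395.7 to 404.8 CPM in the TNFR2-positive libraries. The lists differ in length, so their sums do not give the shares of the cell types. All 6 markers of double-positive thymocytes were higher in the TNFR2-deficient libraries, where their levels summed to 2756 to 2846 CPM against 261.9 to 275.0 CPM. The part of these other cell types in the results that follow was not tested.

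The segments that the results turn on are shown first, each beside the member closest to it in sequence, because a read from a shared stretch could be counted for either. The sequences are the last 280 bases of the annotated transcript, or the stretch that aligns to them, from the GENCODE M21 reference (build GRCm38), 5′ to 3′. They are reference sequences, not read from these libraries. Capitals mark the bases at which the members of a pair differ or that have no partner in the alignment. Iglv1 and Iglv2, on chromosome 16, were the only lambda members, and they differed at 7 positions (97.5% identity).
Iglv1: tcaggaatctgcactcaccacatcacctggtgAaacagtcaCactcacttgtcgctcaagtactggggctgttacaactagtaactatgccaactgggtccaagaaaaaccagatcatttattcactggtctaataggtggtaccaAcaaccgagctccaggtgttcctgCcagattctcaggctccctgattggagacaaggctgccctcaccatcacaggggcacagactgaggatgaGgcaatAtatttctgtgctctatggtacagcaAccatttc
Iglv2: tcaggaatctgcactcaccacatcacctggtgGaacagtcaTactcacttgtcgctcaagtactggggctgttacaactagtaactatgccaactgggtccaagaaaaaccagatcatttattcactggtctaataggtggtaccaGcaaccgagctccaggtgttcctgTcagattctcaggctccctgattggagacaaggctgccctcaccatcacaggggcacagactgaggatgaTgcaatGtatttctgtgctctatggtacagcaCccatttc
Ighv3-5 and Ighv7-3, on chromosome 12, had the largest difference and the smallest adjusted p among the heavy chain members. Ighv3-5 differed from Ighv3-2 at 39 positions (86.1% identity), and Ighv7-3 from Ighv7-4 at 18 (93.6%).
Ighv3-5: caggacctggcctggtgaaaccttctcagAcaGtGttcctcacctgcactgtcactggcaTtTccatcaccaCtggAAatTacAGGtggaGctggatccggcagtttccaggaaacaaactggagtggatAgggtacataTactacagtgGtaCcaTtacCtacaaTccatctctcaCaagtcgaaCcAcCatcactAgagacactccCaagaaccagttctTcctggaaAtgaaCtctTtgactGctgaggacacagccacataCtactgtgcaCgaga
Ighv3-2: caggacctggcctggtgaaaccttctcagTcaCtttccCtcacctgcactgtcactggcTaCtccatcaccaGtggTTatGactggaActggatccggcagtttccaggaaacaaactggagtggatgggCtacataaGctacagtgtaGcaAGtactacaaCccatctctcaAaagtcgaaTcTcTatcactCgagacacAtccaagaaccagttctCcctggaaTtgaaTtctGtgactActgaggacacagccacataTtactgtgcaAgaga
Ighv7-3: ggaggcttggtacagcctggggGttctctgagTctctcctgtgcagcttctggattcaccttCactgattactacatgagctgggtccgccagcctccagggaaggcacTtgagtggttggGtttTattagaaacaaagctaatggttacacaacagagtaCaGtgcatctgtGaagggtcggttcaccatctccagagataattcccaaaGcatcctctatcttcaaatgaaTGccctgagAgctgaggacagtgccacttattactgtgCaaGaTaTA
Ighv7-4: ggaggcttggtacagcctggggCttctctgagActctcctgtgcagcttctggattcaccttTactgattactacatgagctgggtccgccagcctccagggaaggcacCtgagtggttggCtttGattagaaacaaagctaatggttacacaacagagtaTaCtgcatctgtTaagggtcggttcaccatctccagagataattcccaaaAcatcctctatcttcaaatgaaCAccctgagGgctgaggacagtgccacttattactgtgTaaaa
Igkv1-110 and Igkv6-29, on chromosome 6, gave the largest single part of the difference in 5 of 6 pairs of libraries of the same group. Igkv1-110 differed from Igkv1-117 at 9 positions (96.8%), and Igkv6-29 from Igkv6-20 at 5 (98.2%).
Igkv1-110: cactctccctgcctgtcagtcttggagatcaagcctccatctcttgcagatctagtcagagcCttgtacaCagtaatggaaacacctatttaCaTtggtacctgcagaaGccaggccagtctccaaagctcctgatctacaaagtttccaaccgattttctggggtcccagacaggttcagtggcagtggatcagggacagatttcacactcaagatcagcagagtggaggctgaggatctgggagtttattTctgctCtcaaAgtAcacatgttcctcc
Igkv1-117: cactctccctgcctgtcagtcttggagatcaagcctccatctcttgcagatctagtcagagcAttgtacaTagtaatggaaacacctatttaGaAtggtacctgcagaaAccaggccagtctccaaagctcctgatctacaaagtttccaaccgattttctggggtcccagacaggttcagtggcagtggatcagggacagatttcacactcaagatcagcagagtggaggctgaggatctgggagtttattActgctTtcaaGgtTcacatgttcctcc
Igkv6-29: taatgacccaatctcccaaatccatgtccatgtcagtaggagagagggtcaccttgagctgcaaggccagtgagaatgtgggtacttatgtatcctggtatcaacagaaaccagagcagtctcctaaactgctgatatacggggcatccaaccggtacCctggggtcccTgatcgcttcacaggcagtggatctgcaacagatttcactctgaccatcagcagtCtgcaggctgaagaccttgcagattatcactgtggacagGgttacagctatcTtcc
Igkv6-20: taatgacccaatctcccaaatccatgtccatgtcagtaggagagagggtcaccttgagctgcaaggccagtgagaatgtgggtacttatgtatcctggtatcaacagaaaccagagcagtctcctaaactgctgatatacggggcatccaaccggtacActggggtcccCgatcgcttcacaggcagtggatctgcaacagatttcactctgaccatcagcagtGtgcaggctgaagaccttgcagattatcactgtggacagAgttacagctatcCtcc
Across the 222 members with a reference transcript of at least 280 bases, the median identity to the nearest other V segment in this window was 95%. In 17 of them it was at least 98% and in 50 it was under 90%. Only Ighv1-62-2 and Ighv1-71 were identical over the whole window. How reads that fit more than 1 place were counted is not stated by the labels, so single values of members with a close copy are uncertain.

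V transcripts were slightly more abundant in the TNFR2-deficient libraries, and their composition differed between the groups. The members held 54372, 55032 and 57725 counts in the TNFR2-deficient libraries and 49493, 40586 and 45682 in the TNFR2-positive ones. Their summed level was 2351, 2483 and 2400 CPM against 2121, 2076 and 2139 CPM. The groups did not overlap, and the TNFR2-deficient level was 1.14 times the other. The loci moved in opposite directions beneath this sum.

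Heavy chain V segments were lower in the TNFR2-deficient libraries. Their summed level was 560.9, 538.8 and 572.9 CPM there and 806.6, 720.1 and 734.7 CPM in the TNFR2-positive libraries, a ratio of 1.35 in favour of the latter. Kappa V segments went the other way, at 1645, 1783 and 1683 CPM against 1210, 1247 and 1283 CPM, so that the TNFR2-deficient level was 1.37 times the other. Lambda V segments stood at 145.0, 161.4 and 144.6 CPM against 104.6, 109.1 and 121.4 CPM, a ratio of 1.35 in the same direction as kappa. In all 3 loci the groups were fully separate. With only 3 libraries against 3, an exact two-sided permutation test of such a sum cannot go below 0.1, and none is given.

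**Figure D1:**
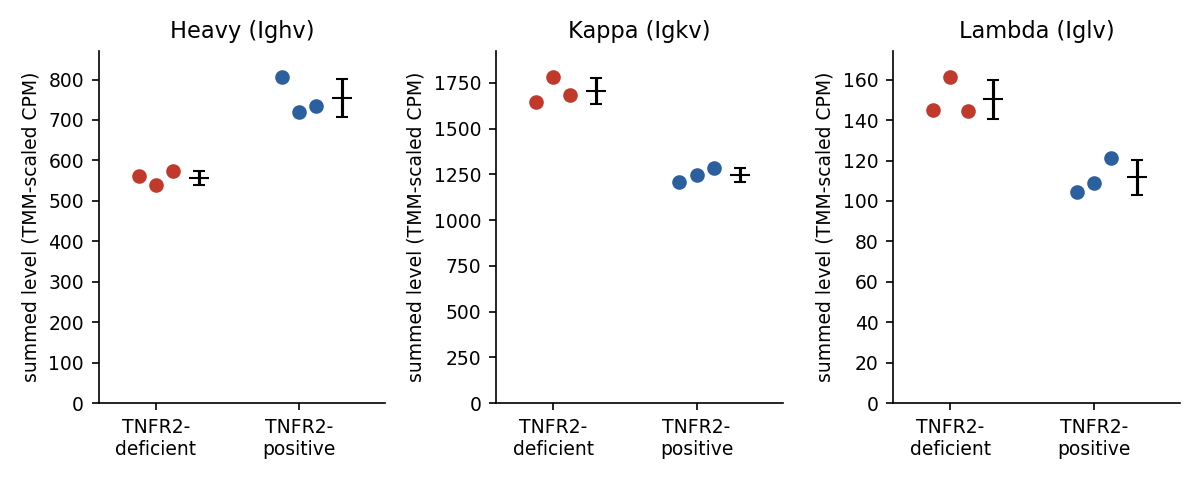
Summed level of the Ighv, Igkv and Iglv members in TMM-scaled CPM (vertical axes, each starting at 0) for the 3 TNFR2-deficient (red) and 3 TNFR2-positive (blue) libraries. Points are libraries and bars the mean ± SD. The heavy chain sum is lower and both light chain sums are higher in the TNFR2-deficient libraries, with no overlap between groups.

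The balance of heavy to light V counts shifted accordingly. Heavy chain segments took 23.9%, 21.7% and 23.9% of the V counts in the TNFR2-deficient libraries and 38.0%, 34.7% and 34.4% in the TNFR2-positive ones. There were 3.19, 3.61 and 3.19 light chain V counts per heavy chain V count in the former and 1.63, 1.88 and 1.91 in the latter.

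The kappa to lambda share, by contrast, overlapped between the groups. Kappa took 91.9%, 91.7% and 92.1% of the light chain V counts in the TNFR2-deficient libraries and 92.0%, 92.0% and 91.4% in the TNFR2-positive ones. The 95% Wilson intervals reach from 91.4% to 92.3% in the first group and from 91.0% to 92.3% in the second, and they cover counting error only, since no molecular identifiers are described. This equals 11.4, 11.1 and 11.6 kappa counts per lambda count against 11.6, 11.4 and 10.6. Among the constant regions, where the annotation measures other exons of the same transcripts, Igkc took 81.8%, 82.1% and 81.9% of the light chain constant counts against 81.6%, 81.0% and 81.9%, again with overlap. The lambda V rows of the table were Iglv1 and Iglv2. Further lambda V segments were not analysed here, which bears on every kappa share given.

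Per 100 constant region counts of the same locus, V counts were lower in the TNFR2-deficient libraries in each locus, by the greatest factor in the heavy chain. The heavy chain locus gave 7.35, 6.70 and 7.43 V counts per 100 constant counts against 13.1, 10.8 and 10.7. Kappa gave 54.1, 52.0 and 54.2 against 67.8, 60.0 and 58.6. Lambda gave 21.3, 21.6 and 21.1 against 26.1, 22.4 and 25.1. TNFR2-positive library 1 stood highest in all 3 loci, and the groups did not overlap without it either.

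The constant regions, which mark the class of the antibody, were mostly higher in the TNFR2-deficient libraries. By edgeR's quasi-likelihood test with Benjamini-Hochberg adjustment over all genes, 12 of 13 constant region genes rose and 1, Ighg1, fell, where 35.1% of all genes tested rose and 34.2% fell, with a median log2 fold change (log2FC, TNFR2-deficient over TNFR2-positive) of 0.66. Ighm, the constant region of IgM, was at 5033 ± 132 against 4503 ± 272 CPM (SD, n = 3; log2FC = 0.16, edgeR adjusted p = 0.0364). Igkc was at 3192 ± 208 against 2017 ± 208 CPM (log2FC = 0.66, edgeR adjusted p = 1.85e-05). Ighm and Ighd, the classes of B cells that have not switched, together held 93.8% to 94.1% of the heavy chain constant counts in the TNFR2-deficient libraries and 96.6% in each TNFR2-positive library. The heavy chain V sum and the Ighm level thus differed in opposite directions.

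Segment by segment, the split between heavy and light chains held for most members. A total of 201 members (97 Ighv, 102 Igkv and 2 Iglv) passed edgeR's filter on low counts, and the 22 others, with at most 53 counts each, were not tested. At an adjusted p below 0.05 over all 17022 genes, 66 V segments were higher in the TNFR2-deficient libraries, where 35.1% of all genes tested were higher. Another 56 were lower, where 34.2% of all genes were lower, and 79 did not pass. Together 122 of the 201 were called, and 69.3% of all genes. These shares of the V segments, 32.8% and 27.9%, were near those of all genes, and it is the division by locus that departed from them.

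None of the 97 Ighv segments tested was higher and 51 (52.6%) were lower, with a median log2FC of -0.46 and quartiles of -0.68 and -0.24. The median over all genes tested was 0.04. The log2FC was below 0 for 93 Ighv segments and above 0 for 4, which were Ighv1-54, Ighv5-12, Ighv2-6 and Ighv8-6, named after their values were seen. Of the 102 Igkv segments tested, 64 (62.7%) were higher and 5 (4.90%) lower, with a median of 0.42 and quartiles of 0.25 and 0.60. Both Iglv segments were higher. The levels of the 2 groups did not overlap, with the TNFR2-deficient one lower, for 58 Ighv and 6 Igkv segments, where 36.3% of all genes showed this. They did not overlap in the other direction for 67 Igkv and 0 Ighv segments, where 38.2% of all genes did.

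More of the abundant segments were called than of the rare ones. Of the Ighv segments with 600 counts or more, 30 of 49 were lower (median -0.40), where 34.2% of all genes tested were. Of those with fewer counts, 21 of 48 were lower (median -0.50). For Igkv, 53 of 67 segments with 600 counts or more were higher and 2 lower (median 0.44), against 11 higher and 3 lower of 35 with fewer (median 0.33). The share of the less abundant Igkv segments called higher was thus no greater than the 35.1% of all genes. Without TNFR2-positive replicate 1, Ighv8-6 had a log2FC of 1.50 (edgeR adjusted p = 0.0134) and became the 1 Ighv segment called higher. With that library its log2FC was 0.66 (adjusted p = 0.222), at 0.735, 0.632 and 0.540 CPM against 0.729, 0.205 and 0.234 CPM.

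**Figure D2:**
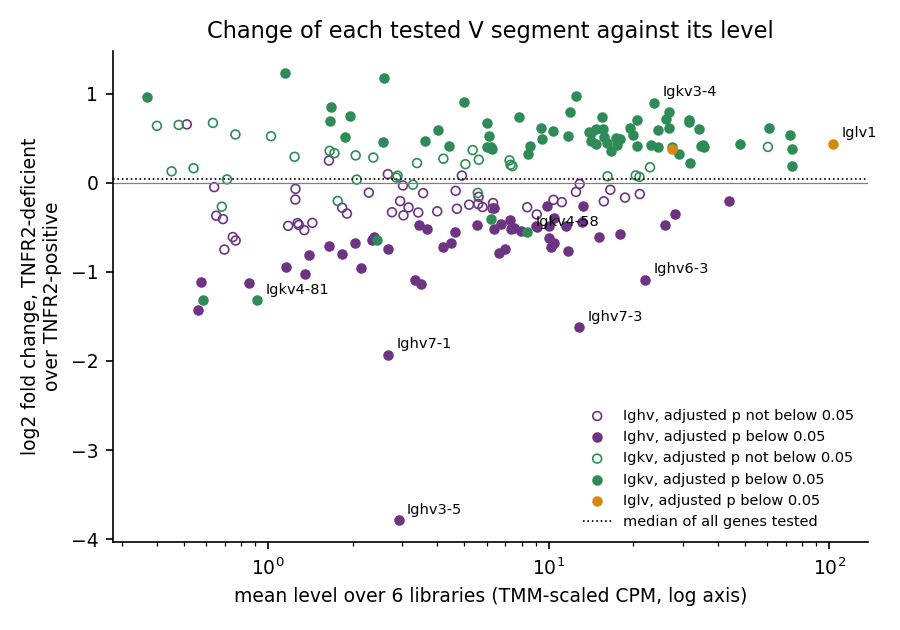
Log2 fold change of each tested V segment (vertical axis, TNFR2-deficient over TNFR2-positive) against its mean TMM-scaled CPM over the 6 libraries (horizontal log axis). Purple points are Ighv, green Igkv and orange Iglv, filled where the edgeR adjusted p is below 0.05, and the dotted line is the median of all genes tested at 0.04. Most purple points lie below the line and most green points above it, and Ighv3-5 lies lowest at -3.79.

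Ighv3-5 (ENSMUSG00000076670), a member of the small Ighv3 family, had the largest difference of any V segment. Its level was 0.346, 0.542 and 0.291 CPM in TNFR2-deficient libraries 1 to 3 against 5.79, 4.35 and 6.18 CPM in the TNFR2-positive set, from 8, 12 and 7 against 135, 85 and 132 counts. All 3 TNFR2-deficient libraries were far below all others. It was 13.8-fold lower (log2FC = -3.79, SE 0.263, edgeR adjusted p = 2.32e-07). Within the heavy chain locus its share of counts was 0.0617%, 0.101% and 0.0508% against 0.717%, 0.604% and 0.841%, so its difference went beyond that of the locus. The nearest member in sequence, the pseudogene Ighv3-2 shown above, was at 0.519, 0.226 and 0.333 CPM against 0.514, 0.870 and 0.983 CPM, with overlap between the groups (log2FC = -1.11, edgeR adjusted p = 0.0288). Ighv3-6, the most abundant Ighv3 segment per kilobase, stood at 23.7, 20.1 and 21.7 CPM against 32.7, 29.7 and 28.3 CPM. Its difference was near the median of its locus (log2FC = -0.47, edgeR adjusted p = 3.42e-04).

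The Ighv7 family stood apart from the rest of the locus as well. Ighv7-3 (ENSMUSG00000076652) was at 5.97, 6.86 and 6.03 CPM in TNFR2-deficient libraries 1 to 3 against 20.4, 19.0 and 18.6 CPM in the TNFR2-positive set. The groups were fully separate and the segment was 3.08-fold lower (log2FC = -1.62, SE 0.0975, edgeR adjusted p = 7.1e-08). Ighv7-1, named after its values were seen, was at 1.34, 0.948 and 1.04 CPM against 4.63, 3.48 and 4.59 CPM (log2FC = -1.93, edgeR adjusted p = 9.37e-06). Ighv7-4, the closest to Ighv7-3 in sequence, did not pass the test (log2FC = -0.65, edgeR adjusted p = 0.142), with 0.735, 0.451 and 0.582 against 0.557, 1.33 and 0.936 CPM. The 3 Ighv7 members together took 1.43%, 1.53% and 1.34% of Ighv counts in the TNFR2-deficient libraries and 3.17%, 3.31% and 3.29% in the TNFR2-positive ones.

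Ighv6-3 had the highest level per kilobase of the segments with a difference of at least 2-fold. It was at 15.4, 12.5 and 14.5 CPM in TNFR2-deficient libraries 1 to 3 against 31.2, 28.4 and 30.4 CPM in the TNFR2-positive set, again with no overlap (log2FC = -1.09, SE 0.0877, edgeR adjusted p = 7.82e-07). In all, 10 Ighv and 2 Igkv segments were called and at least 2-fold lower, where 13.5% of all genes tested were. The other Ighv ones, named after their values were seen, were Ighv1-66, Ighv2-9-1, Ighv8-5 and the pseudogenes Ighv1-38, Ighv3-2 and Ighv4-2. The 2 Igkv ones were Igkv4-81 and Igkv7-33. Only 2 segments, Igkv14-130 (log2FC = 1.17) and Igkv4-62 (log2FC = 1.23), were called and at least 2-fold higher, where 8.01% of all genes were.

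The large Ighv1 family, known as J558, set most of the heavy chain signal. It took 58.4%, 59.5% and 59.9% of Ighv counts in the TNFR2-deficient libraries and 54.8%, 55.0% and 55.2% in the TNFR2-positive ones. Of its 48 tested members 25 were lower and none higher (median log2FC -0.45), where 34.2% of all genes tested were lower and 35.1% higher. Ighv1-26 had the highest level per kilobase of all Ighv members and was the top Ighv segment in each library. It stood at 41.2, 39.7 and 41.6 CPM against 48.3, 44.8 and 47.5 CPM, a small difference without overlap (log2FC = -0.20, edgeR adjusted p = 0.0126). Its adjusted p was 0.0716 without the filter on low counts and 0.0741 with the relation to exonic length removed, and over all alternatives tried it lay between 0.00558 and 0.0741. Its share of Ighv counts was higher in the TNFR2-deficient libraries, at 7.35%, 7.36% and 7.26% against 5.99%, 6.22% and 6.46%. The other most abundant Ighv segments behaved unevenly. Ighv9-3 was lower (log2FC = -0.35, edgeR adjusted p = 0.00457), while Ighv1-82 (log2FC = -0.13, edgeR adjusted p = 0.190) and Ighv1-9 (log2FC = -0.17, edgeR adjusted p = 0.178) did not pass.

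Among kappa segments the rise was broad and mostly of modest size. Igkv3-4 was at 30.3, 32.7 and 29.9 CPM in TNFR2-deficient libraries 1 to 3 against 14.8, 17.5 and 17.5 CPM in the TNFR2-positive set (log2FC = 0.90, SE 0.0834, edgeR adjusted p = 2.25e-06). Igkv6-15 was at 73.0, 76.5 and 72.7 against 48.9, 47.3 and 49.0 CPM (log2FC = 0.61, edgeR adjusted p = 2.6e-06). Both lie on the constant region side of their locus, and neither overlapped between the groups. Igkv6-17, also of the Igkv6 family, was at 39.3, 39.2 and 38.1 against 23.5, 23.7 and 25.5 CPM (log2FC = 0.68, edgeR adjusted p = 2.85e-06). Of the Igkv3 family 7 of 8 tested members were higher (median 0.61), where 35.1% of all genes tested were. Of the Igkv6 family 7 of 9 were higher (median 0.60). The Igkv3 share of Igkv counts was 7.58% to 7.75% in the TNFR2-deficient libraries and 6.23% to 6.43% in the TNFR2-positive ones. In the Igkv4 family, the kappa family with the most members, 18 of 29 tested were higher and 3 lower (median 0.47). Over all genes tested 35.1% were higher and 34.2% lower. The Igkv4 share of Igkv counts overlapped between the groups.

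The most abundant kappa segments per kilobase followed the locus to different degrees. Igkv1-135 was at 85.4, 88.2 and 84.5 against 60.7, 56.6 and 60.0 CPM (log2FC = 0.54, edgeR adjusted p = 7.7e-06). Igkv10-96 was at 80.7, 86.3 and 82.4 against 61.7, 62.0 and 67.6 CPM (log2FC = 0.38, edgeR adjusted p = 1.79e-04), and Igkv19-93 rose by a like amount (log2FC = 0.44, edgeR adjusted p = 1.57e-04). Igkv1-117 had a smaller difference, at 74.8, 80.0 and 81.2 against 65.2, 70.7 and 70.9 CPM (log2FC = 0.19, edgeR adjusted p = 0.0172). That last call was lost without TNFR2-deficient replicate 2 (adjusted p = 0.0791), without TNFR2-deficient replicate 3 (adjusted p = 0.108) and with DESeq2 (adjusted p = 0.0703), and the adjusted p ranged from 0.00157 to 0.108 over the alternatives. Accordingly the top kappa segment by counts was Igkv1-117 in each TNFR2-positive library, Igkv1-135 in TNFR2-deficient libraries 1 and 3 and Igkv1-110 in library 2.

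A few kappa segments went against their locus. Igkv4-58 was at 7.05, 6.59 and 6.74 CPM in TNFR2-deficient libraries 1 to 3 against 10.3, 10.2 and 9.36 CPM in the TNFR2-positive set, with no overlap (log2FC = -0.55, edgeR adjusted p = 5.17e-04). Igkv4-81 was at 0.649, 0.496 and 0.416 against 1.41, 1.23 and 1.26 CPM (log2FC = -1.32, edgeR adjusted p = 0.00165). The pseudogene Igkv2-107 was at 1.73, 1.76 and 2.25 against 2.91, 3.02 and 3.04 CPM (log2FC = -0.64, edgeR adjusted p = 0.00956). The other ones, named after their values were seen, were Igkv4-86 (log2FC = -0.41) and Igkv7-33 (log2FC = -1.31). Both of these lost the call without TNFR2-deficient replicate 1, with adjusted p of 0.0679 and 0.0666, which left 3 Igkv segments lower.

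Both lambda members were higher in the TNFR2-deficient libraries. Iglv1 (ENSMUSG00000076934) had the highest level per kilobase of all 223 members, 264.6 CPM per kilobase over the 6 libraries, ahead of Igkv10-96 at 204.6. It was at 115.0, 127.7 and 114.9 CPM in TNFR2-deficient libraries 1 to 3 against 82.8, 85.8 and 94.6 CPM in the TNFR2-positive set (log2FC = 0.44, edgeR adjusted p = 1.51e-04). Iglv2 was at 30.0, 33.7 and 29.7 against 21.9, 23.2 and 26.8 CPM (log2FC = 0.38, edgeR adjusted p = 0.00235). Neither overlapped between the groups. The ratio of Iglv1 to Iglv2 counts was 3.84, 3.79 and 3.87 in the TNFR2-deficient libraries and 3.79, 3.70 and 3.53 in the TNFR2-positive ones. The difference in this ratio, 1.04 times, was small beside that of either segment.

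The repertoire was spread over many segments in every library and somewhat less evenly in the TNFR2-deficient ones. Between 222 and 223 of the 223 members had at least 1 count in each library, which follows largely from the rule that chose them. Members with 10 counts or more numbered 196 to 197 in the TNFR2-deficient libraries and 196 to 204 in the TNFR2-positive ones. The effective number of segments, the exponential of the Shannon entropy of their shares, was 105.4, 100.9 and 105.6 in the TNFR2-deficient libraries (mean 104.0 ± 2.66, SD, n = 3) and 122.1, 118.5 and 117.6 in the TNFR2-positive ones (mean 119.4 ± 2.38). The inverse Simpson index, which gives more weight to abundant segments, was 68.8, 64.2 and 69.0 against 84.8, 80.2 and 79.5. The groups were separate by both measures. With V counts thinned to 40586 in every library, the depth of the shallowest, the mean effective numbers were 104.0 and 119.3.

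No single segment dominated. Iglv1 was the segment with the most counts in all 6 libraries, with 4.89%, 5.14% and 4.79% of V counts in the TNFR2-deficient libraries and 3.90%, 4.13% and 4.42% in the TNFR2-positive ones. The top 10 segments took 27.9%, 29.8% and 28.1% against 24.5%, 25.7% and 25.4%. It took 27, 25 and 27 segments to reach 50% of V counts in the TNFR2-deficient libraries and 34, 32 and 32 in the TNFR2-positive ones.

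**Figure D3:**
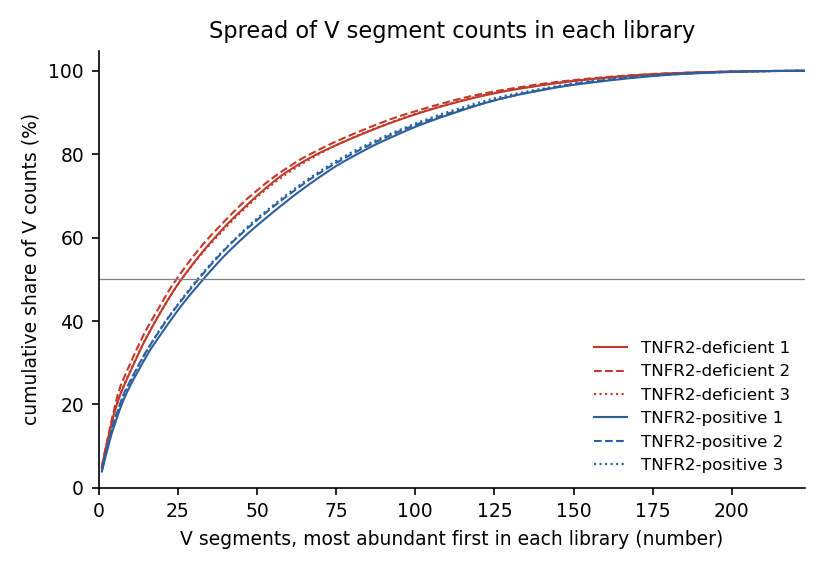
Cumulative share of V counts (vertical axis, %) over the members ordered from most to least abundant within each library (horizontal axis, number of segments), with 1 line per library, red for TNFR2-deficient and blue for TNFR2-positive, and a grey line at 50%. The red lines cross it at 25 to 27 segments and the blue lines at 32 to 34.

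Within the loci the difference in spread was smaller. Over Ighv alone the effective number was 63.0, 62.6 and 62.9 in the TNFR2-deficient libraries and 65.5, 65.8 and 64.8 in the TNFR2-positive ones, a ratio of 1.04 without overlap. Over Igkv alone it was 60.8, 59.7 and 60.9 against 61.8, 60.9 and 61.2, and the groups overlapped. The top Ighv segment took more of its locus in the TNFR2-deficient libraries, 7.26% to 7.36% against 5.99% to 6.46%. The top Igkv segment took less of its locus there, 5.02% to 5.25% against 5.39% to 5.66%, also without overlap. The share of heavy chain counts differed in the same libraries, as given above, and its part in the difference over all members was not tested.

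Libraries of the same group had nearly the same repertoire. The overlap of 2 libraries, the sum over segments of the smaller of their shares of V counts, was 95.2% to 96.7% among the TNFR2-deficient libraries and 94.7% to 95.3% among the TNFR2-positive ones. Between the groups it was 82.8% to 88.3%. Computed within Ighv it was 94.0% to 95.4% inside groups and 89.7% to 90.9% between them, and within Igkv 95.6% to 97.4% and 91.9% to 94.1%. The use of segments inside each locus therefore also differed between the groups by more than between libraries of a group. A chi-square over the segments, divided by its degrees of freedom, was 1.52 to 2.69 between TNFR2-deficient libraries, 1.75 to 2.43 between TNFR2-positive ones and 10.7 to 20.3 between groups. All pairs of libraries thus differed by more than counting noise of independent reads, and none was counted as a copy of another. Reads copied during amplification also raise this value, and their part was not tested.

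Igkv1-110 (ENSMUSG00000093861) was the segment behind the largest part of the difference between TNFR2-deficient libraries 1 and 2, where it gave 31.1% of the chi-square. It was at 54.7, 93.6 and 58.3 CPM in TNFR2-deficient libraries 1 to 3 against 45.0, 62.0 and 49.3 CPM in the TNFR2-positive set. Library 2 was the high one in both groups, and the groups overlapped (log2FC = 0.40, SE 0.178, edgeR adjusted p = 0.0610). Its share of Igkv counts was 3.32%, 5.25% and 3.46% against 3.72%, 4.97% and 3.84%. The log2FC was 0.11 (adjusted p = 0.452) without TNFR2-deficient replicate 2. Under several alternatives the call was gained, among them without the filter on low counts (adjusted p = 4.52e-08), with the relation to exonic length removed (adjusted p = 0.0124) and without each of TNFR2-deficient replicate 1, TNFR2-deficient replicate 3 and TNFR2-positive replicate 2 (adjusted p = 0.0179, 0.0335 and 0.0293). Igkv1-117, the near copy shown above, had no such peak, at 4.54%, 4.48% and 4.82% against 5.39%, 5.66% and 5.53% of Igkv counts.

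Igkv6-29 (ENSMUSG00000076578), singled out after its values were seen, varied in the same manner with the first library low. It was at 4.32, 8.08 and 7.03 CPM in TNFR2-deficient libraries 1 to 3 against 1.20, 4.66 and 4.68 CPM in the TNFR2-positive set. Library 1 was the lowest in each group, and the groups overlapped (log2FC = 0.90, SE 0.367, edgeR adjusted p = 0.0444). The log2FC was 0.47 without TNFR2-positive replicate 1, and the call was lost without TNFR2-deficient replicate 2 or 3 (adjusted p = 0.176 and 0.101), with RLE scaling (adjusted p = 0.0524) and with DESeq2 (adjusted p = 0.221). The adjusted p ranged from 3.57e-08 to 0.221 over the alternatives. Igkv6-20, which differs from it at 5 positions, was even within each group, at 16.2, 17.4 and 17.1 against 11.8, 11.4 and 11.2 CPM.

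**Figure D4:**
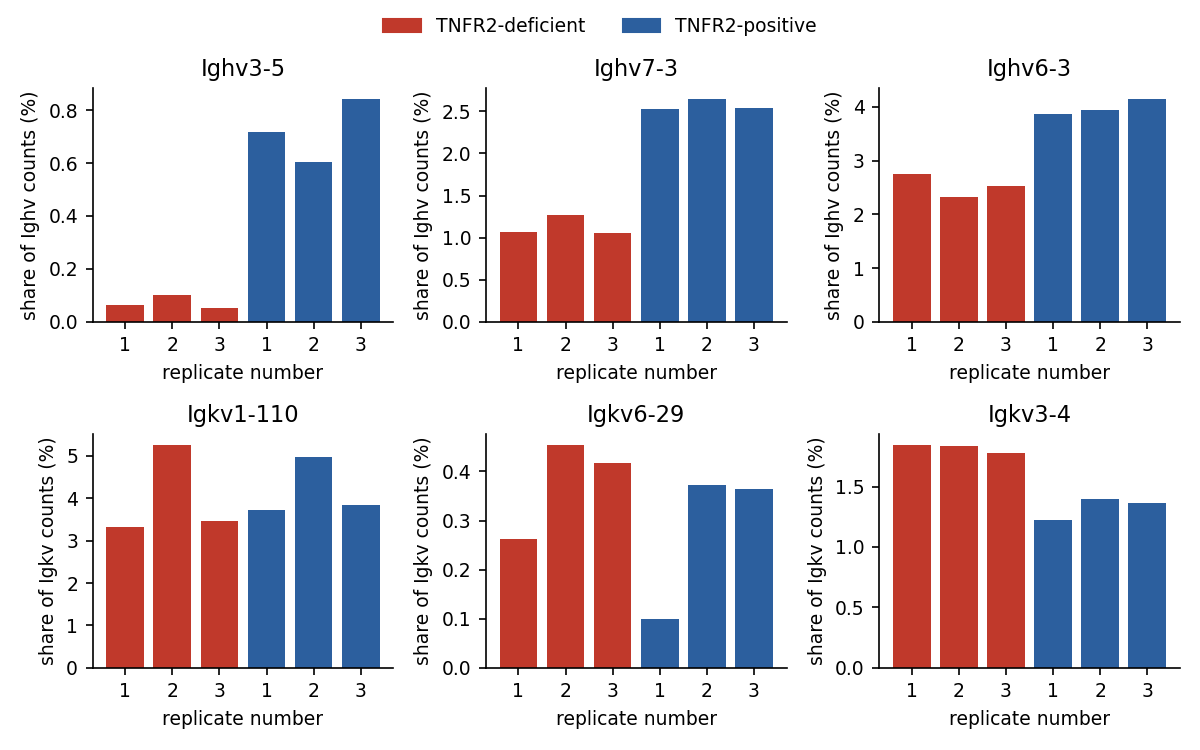
Share of the counts of their locus (vertical axes, %, starting at 0) taken by 6 segments in each library, numbered by replicate, red for TNFR2-deficient and blue for TNFR2-positive. Ighv3-5, Ighv7-3, Ighv6-3 and Igkv3-4 separate the groups, whereas Igkv1-110 is high in library 2 of both groups (5.25% and 4.97%) and Igkv6-29 is low in library 1 of both (0.263% and 0.0992%).

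Segments known from B-1 cells and from early B cell development were looked at whatever their values. Ighv11-2 and Ighv12-3, which pair with Igkv14-126 and Igkv4-91 in antibodies of B-1 cells against phosphatidylcholine, were both rare. Ighv11-2 was at 0.692, 0.812 and 0.873 against 1.63, 1.69 and 1.26 CPM, without overlap (log2FC = -0.94, edgeR adjusted p = 0.00759). Ighv12-3 did not pass (log2FC = -0.48, edgeR adjusted p = 0.192). Igkv14-126 was at 4.54, 5.10 and 5.49 against 4.41, 3.17 and 3.75 CPM (log2FC = 0.41, edgeR adjusted p = 0.0357), and Igkv4-91 did not pass (log2FC = 0.07, edgeR adjusted p = 0.500). The Igkv14-126 call was lost under 6 alternatives, without TNFR2-deficient replicate 2 or 3 or TNFR2-positive replicate 2 or 3, with RLE scaling and with DESeq2, with adjusted p from 0.0511 to 0.130 there and from 0.00694 to 0.130 over all alternatives. Of 4 B-1 cell markers 3 were lower and none higher, where 34.2% of all genes tested were lower. The lower ones were Cd5 (log2FC = -0.39), Zbtb32 (log2FC = -1.12) and Ctla4, which is also a Treg marker. Bhlhe41 did not pass (log2FC = 0.04, edgeR adjusted p = 0.757). Which cells these marker transcripts came from was not tested.

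Ighv5-2, known as VH81X and as a segment favoured in the first heavy chain rearrangements, lies nearest to the constant region of the Ighv members. It was at 1.77, 1.31 and 1.29 CPM in TNFR2-deficient libraries 1 to 3 against 3.17, 2.46 and 2.81 CPM in the TNFR2-positive set (log2FC = -0.95, edgeR adjusted p = 0.00192). The surrogate light chain genes of B cell precursors, Vpreb1, Vpreb2 and Igll1, held 0 to 11 counts in each library and were too low to test. Of the 5 B cell precursor markers tested 4 were higher, where 35.1% of all genes tested were. The other, Cd93, was lower (log2FC = -1.22, edgeR adjusted p = 3.08e-06). Rag1, Rag2 and Dntt had a log2FC of 8.11, 8.24 and 7.89. Both Rag1 and Dntt were also on the list of double-positive thymocyte markers. Vpreb3 was higher by a modest amount (log2FC = 0.72, edgeR adjusted p = 8.24e-06). Rag1, the recombinase gene that B cell precursors share with thymocytes, was at 917.9 ± 72.7 against 3.31 ± 0.0785 CPM (SD, n = 3).

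Position along the locus was read from the order of the segments in GENCODE M21. With the members of a locus cut into 4 stretches of like size, from the nearest to the constant region to the farthest, the median log2FC of Ighv was -0.36, -0.48, -0.47 and -0.33. For Igkv it was 0.59, 0.54, 0.32 and 0.40, with 19 of 26, 21 of 27, 11 of 26 and 13 of 23 tested segments higher. The 2 Igkv stretches nearer to the constant region thus had the higher medians and more segments called higher, where 35.1% of all genes were higher, and no test of this was made. By orientation, 24 of 38 segments in the orientation of Igkc were higher (median 0.41) and 40 of 64 in the opposite one (median 0.45).

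**Figure D5:**
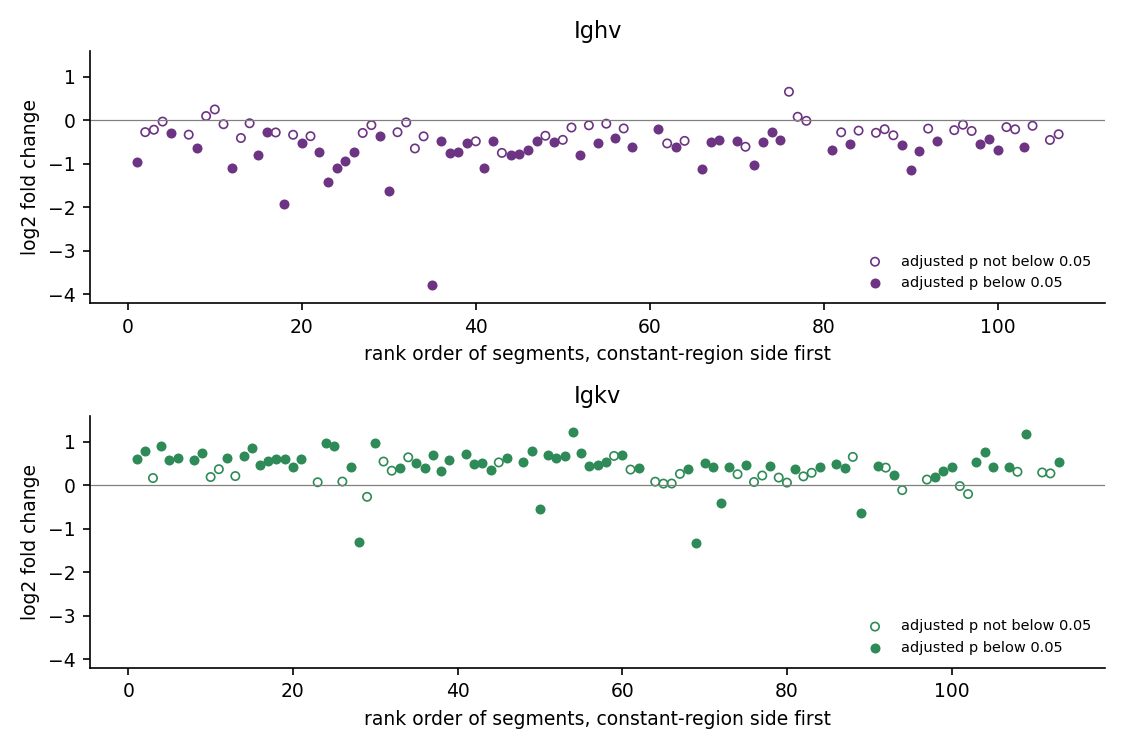
Log2 fold change of the tested Ighv (upper panel) and Igkv (lower panel) segments by their rank order along the locus, with the constant region side first, filled where the edgeR adjusted p is below 0.05. Lower Ighv and higher Igkv segments occur along the whole of each locus, and Ighv3-5 is the lowest point of the upper panel at -3.79.

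V pseudogenes, which cannot encode a functional chain, gave few counts. They held 0.633%, 0.641% and 0.670% of V counts in the TNFR2-deficient libraries and 0.964%, 0.813% and 0.913% in the TNFR2-positive ones, with no overlap. All 4 tested Ighv pseudogenes were lower (median log2FC -1.12), while of 8 tested Igkv pseudogenes 1 was higher and 1 lower (median 0.24). Of all genes tested, 34.2% were lower and 35.1% higher. The most abundant pseudogenes were Igkv4-77, which did not pass (log2FC = 0.08, edgeR adjusted p = 0.679), and Igkv2-107, given above.

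Some markers of B cell states differed between the groups in the same libraries, where 35.1% of all genes tested were higher and 34.2% lower. Of 16 B cell markers 9 were higher and 4 lower (median log2FC 0.24), and those that were lower were Pax5, Cr2, Cd22 and Bank1. The exonic lengths of these 4 ran from 5042 to 8853 bases. Cd79a and Cd79b, which rose most, measured 1457 and 1431 bases, but Blnk, at 5991 bases, was also higher. The part of exonic length in these marker differences was not tested. Of 9 tested plasma cell markers 5 were higher and 1 lower (median 0.23). The lower one was Prdm1 (log2FC = -1.37, edgeR adjusted p = 5.96e-07), and Jchain, Sdc1 and Derl3 did not pass. The 10 plasma cell markers listed summed to 458.6 to 471.4 CPM against 366.5 to 408.8 CPM. Of 6 germinal centre markers 4 were higher and none lower (median 0.89). The part of these states in the V segment differences was not tested.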

How the data were processed

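Poly(A) RNA of 6 mouse libraries was sequenced, 3 per group. The authors deposited raw counts per gene, without normalization. HISAT2 2.1.0 and GRCm39 were used, per the submitters' processing notes. Which program made the counts, with which annotation and strand setting, and how it treated reads that fit several places, is not given in the sources used here. Groups were taken from the sample titles.

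Counts were filtered with filterByExpr, scaled by TMM and tested with the quasi-likelihood test of edgeR 4.0.16 in R 4.3.3, with Benjamini-Hochberg adjustment over 17022 genes and a threshold of 0.05. The procedure was tested on simulated data. Symbols were available for 30529 of 32377 rows, and 14 V models without a V symbol were left out. GENCODE M21, of build GRCm38, gave biotype, exonic length, order and sequence, and no coordinates are printed because the builds differ.

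The members and gene lists were chosen with earlier results of these data known. Segments named with values were the 6 most abundant of Ighv and of Igkv, the 3 with the smallest adjusted p in each direction, all of Iglv, the top segment of each library, Ighv5-2, Ighv11-2, Ighv12-3, Igkv14-126, Igkv4-91, those at the count threshold and the 2 most abundant pseudogenes. Others are said to be named after their values were seen. J segments were added after the data were seen. Alternatives were no filter, RLE scaling, DESeq2 1.42.0, a replicate block, each library left out, other member thresholds, no pseudogenes and thinned counts. Removal of the relation to exonic length, by splines with 4 degrees of freedom, and counts per exonic kilobase were added after the data were seen. Depth limits the precision of rare segments, above all where a library holds 3 counts or fewer. CPM were computed from the counts as deposited.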

Additional observations from a re-analysis of the deposited data

How the results depend on the processing

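The counts of V segments called higher and lower, 66 and 56, were 66 and 55 without the filter on low counts, 64 and 60 with RLE scaling, 71 and 53 with the relation to exonic length removed, and 54 and 54 with DESeq2. Leaving out each library in turn gave 54 to 64 and 48 to 54. The median log2FC of Ighv stayed between -0.50 and -0.38 and that of Igkv between 0.39 and 0.48 over these settings, while the median of all genes moved between -0.03 and 0.12. Among Ighv, 0 to 1 segments were higher when a library was left out, and among Igkv, 3 to 5 were lower. The mean effective number was 101.0 and 115.2 in the TNFR2-deficient and TNFR2-positive libraries with members of 100 counts or more, and 101.3 and 115.5 without pseudogenes. Per exonic kilobase, the mean share of the top segment was 4.67% in the TNFR2-deficient and 3.92% in the TNFR2-positive libraries. The mean kappa share was then 92.2% and 92.1%. Of the 28 named segments followed through all alternatives, 4 lost their call under some alternative (Ighv1-26, Igkv1-117, Igkv14-126 and Igkv6-29). Another 1 gained it (Igkv1-110), and 0 changed direction. Outside these 28, Igkv4-86 and Igkv7-33 lost their call without TNFR2-deficient replicate 1. Ighv8-6 gained one without TNFR2-positive replicate 1. The remaining named segments were not tallied in this way. The cause of these changes was not tested. Same-numbered libraries correlated in their deviations from the group means by 0.21, 0.28 and -0.23 over 11172 genes. Over all these genes, TNFR2-deficient library 1 correlated best with its own number. TNFR2-deficient library 2, however, did so with TNFR2-positive library 3 (0.29), and TNFR2-deficient library 3 with TNFR2-positive library 1 (0.25). Over 118 V segments the values of same-numbered libraries were 0.34, 0.27 and 0.04, and there 5 of 6 libraries correlated best with their own number. The labels do not say that the numbers pair libraries, and the main test did not pair them. Whether same-numbered libraries share a source or a batch was not tested. With the replicate number as a block, 65 V segments were higher and 56 lower, and Igkv1-110 passed (edgeR adjusted p = 4e-04). The edgeR adjusted p of Igkv6-29 was 5.4e-04 with the block and 0.0444 without it. In low segments such as Ighv3-5, with 7 to 12 counts in each TNFR2-deficient library, depth limits the size of the fold.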

Other observations

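J segments, the short segments to which a V segment is joined, were counted as rows of their own and were looked at after their values were seen. Of 11 tested J segments 9 were lower in the TNFR2-deficient libraries and 0 higher by edgeR's test (median log2FC -2.22), where 34.2% of all genes tested were lower. The Ighj rows summed to 3.98, 4.78 and 4.24 CPM in TNFR2-deficient libraries 1 to 3 against 37.2, 33.0 and 29.4 CPM in the TNFR2-positive set. The Igkj rows summed to 27.8, 26.1 and 28.6 against 137.3, 107.1 and 106.2 CPM. Both loci were thus separate between the groups, although the kappa V segments were higher where the kappa J segments were lower. The Iglj rows overlapped, at 2.90, 3.07 and 3.45 against 2.79, 3.17 and 3.61 CPM. The largest J difference was in Ighj2, at 0.626 ± 0.207 against 5.23 ± 0.677 CPM (SD, n = 3; log2FC = -3.06, edgeR adjusted p = 5.85e-07).

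Among the constant regions, Ighg2c was at 90.3, 101.2 and 92.5 CPM in TNFR2-deficient libraries 1 to 3 against 11.5, 11.6 and 11.8 CPM in the TNFR2-positive set (log2FC = 3.02, edgeR adjusted p = 4.21e-11). Ighg1 went the other way, at 12.7, 14.5 and 12.1 against 34.4, 37.1 and 44.3 CPM (log2FC = -1.56, edgeR adjusted p = 1.89e-07). Igha, the class of mucosal antibody, was at 158.6, 183.7 and 176.3 against 53.7, 62.2 and 58.9 CPM (log2FC = 1.57, edgeR adjusted p = 1.14e-08). These 3 classes were singled out after their values were seen.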
